A study of Mus musculus with 2 samples.

Results

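OG3 is one of 15 mesenchymal and osteogenic clusters that the authors labelled in single-cell RNA sequencing of the embryonic mouse coronal suture, and its named markers are *Mmp13* and *Podnl1*. Its members are the cells that carry the label OG3 in the deposited cell table, matched to the deposited count matrices by barcode and library. They number 1067 of 12165 labelled cells, with 140 of the 5335 labelled cells of embryonic stage E15.5 and 927 of the 6830 of stage E17.5. Both libraries came from wild-type embryos of the C57/BL6 strain, with no transgene or treatment named. For E15.5 a single pool of sutures was digested in collagenase II plus dispase, and dead cells were removed with a kit. For E17.5, sutures were digested in separate batches in collagenase IV and the cells were sorted by flow cytometry. The E17.5 barcodes end in a suffix from 1 to 3 that is not tied to a batch in the data used here. Stage, embryos, enzyme and sorting differ together between both libraries and cannot be told apart. The gene lists differ too, with 31053 genes in the E15.5 matrix and 27998 in the E17.5 matrix, of which the 27514 in both by identifier were used. There is 1 library per stage, so no test, SE or p-value is given. The authors drew the clusters from these same cells, so each level below describes OG3 and is no independent test of it.

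The coronal suture lies between the frontal and parietal bones, and new bone forms at its edges and on bone surfaces by intramembranous ossification. Mesenchymal progenitors take up *Runx2* and then *Sp7*, become preosteoblasts rich in alkaline phosphatase, and mature into osteoblasts that secrete and mineralize collagen I matrix. Osteoblast lineage cells also express collagenase 3, the product of *Mmp13*, and signals that act on osteoclasts, the cells that resorb bone. The clusters set beside OG3 below are OG1 (markers *Erg* and *Pthlh*), OG2 (*Lef1* and *Inhba*) and OG4 (*Ifitm5* and *Dmp1*, genes of mature osteoblasts). With the proliferating clusters PO1 and PO2 they make up the 6 osteogenic clusters. The other labels are ectocranial (EC1 to EC4), ligament-like (LIG) and meningeal (MG1 to MG4).

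OG3 held 1293698 unique molecular identifiers (UMIs) in the E15.5 library and 12881083 in the E17.5 library, so the E17.5 values carry the smaller counting error. Its cells had a median of 8519 UMIs at E15.5, where the other labelled cells had 8510, and 12948 at E17.5, where the others had 12147. Levels are in CPM, the UMIs of a gene summed over cells and scaled to the sum of all UMIs of those cells, each with an exact Poisson 95% interval. Intervals cover counting error only, not the spread between cells, embryos or batches. All 140 OG3 cells of E15.5 had fewer UMIs in the matrix than in the authors' table, with a median of 8519 against 11486.5, and all 927 of E17.5 had equal numbers. The E15.5 levels are therefore not those behind the deposited labels. No barcode was shared between OG3 cells of both libraries.

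*Mmp13*, which encodes collagenase 3, was far higher in OG3 than elsewhere in both libraries. The gene (ENSMUSG00000050578) lies on the forward strand of chromosome 9, from 7272514 to 7283331 in GRCm38. At E15.5 it was at 321 CPM in OG3 (291 to 353, 415 UMIs) and at 1.37 CPM in the other labelled cells, a 233.5-fold ratio. At E17.5 it was at 185 CPM in OG3 (177 to 192, 2378 UMIs) and at 10.1 CPM in the others, an 18.4-fold ratio. No other cluster reached OG3 in either library. The next cluster was EC1 in both libraries, at 4.23 and 30.5 CPM. In the E17.5 barcode suffixes 1, 2 and 3, OG3 was at 253, 160 and 165 CPM, and the other labelled cells were at 12.6, 10.0 and 9.18 CPM. The pooled level of OG3 was the higher one in each suffix, which does not describe single cells.

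The bases upstream of *Mmp13* and of *Spp1* are shown because UMIs of both genes were seen together in part of the OG3 cells, as given further on. Whether the genes share regulation was not tested. Each line gives the 250 bases before the start of the RefSeq transcript in GRCm38.p6, on the forward strand, at chr9:7272264-7272513 for *Mmp13* and chr5:104434861-104435110 for *Spp1*, the first of 2 entries for that gene. Capitals mark matches to the AP-1 motif TGACTCA and the Runx motif AACCACA, each searched on both strands. The motifs did not overlap one another in these windows.
Mmp13: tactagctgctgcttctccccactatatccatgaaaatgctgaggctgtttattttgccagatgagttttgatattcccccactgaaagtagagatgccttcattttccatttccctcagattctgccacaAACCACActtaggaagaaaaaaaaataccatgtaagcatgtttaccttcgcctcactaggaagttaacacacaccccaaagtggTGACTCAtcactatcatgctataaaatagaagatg
Spp1: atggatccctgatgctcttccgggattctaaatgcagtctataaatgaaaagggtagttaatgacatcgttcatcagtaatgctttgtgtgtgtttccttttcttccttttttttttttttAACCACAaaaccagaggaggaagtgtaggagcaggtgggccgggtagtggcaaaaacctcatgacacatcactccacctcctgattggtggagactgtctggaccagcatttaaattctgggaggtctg
The *Mmp13* window held both, the AP-1 motif from 35 to 29 and the Runx motif from 119 to 113 bases before the start. The *Spp1* window held the Runx motif from 129 to 123 bases before the start. Of 32851 RefSeq windows, 4.46% held the AP-1 motif, 4.4% the Runx motif and 0.24% both. A match is a match of letters only, and binding was not measured.

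*Podnl1* encodes podocan-like 1, a member of the small leucine-rich proteoglycans, and lies on the forward strand of chromosome 8 from 84125989 to 84132527 in GRCm38 (ENSMUSG00000012889). In OG3 it was at 41.7 CPM in the E15.5 library (31.4 to 54.5, 54 UMIs) and at 42.9 CPM in the E17.5 library (39.4 to 46.6, 552 UMIs). The other labelled cells were at 0.951 and 3.78 CPM, ratios of 43.9-fold and 11.4-fold. The level in OG3 was therefore alike in both libraries, and the ratio was lower at E17.5, where the level outside OG3 was higher. OG4 had no *Podnl1* UMI at E15.5, which puts OG3 at least 25.2-fold higher against a floor of 3 counts, and 2.67 CPM at E17.5. Over the E17.5 suffixes 1, 2 and 3, OG3 was at 28.8, 50.5 and 44.1 CPM and the other labelled cells were at 3.62, 3.28 and 4.29.

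**Figure D1:**
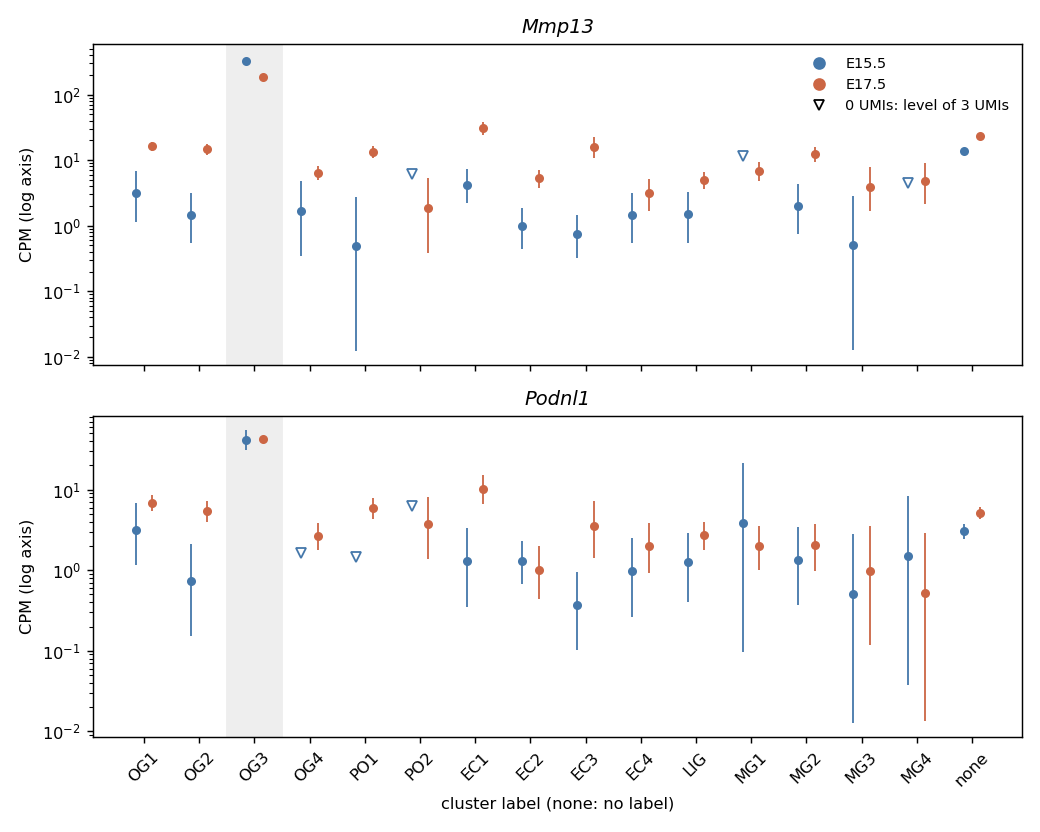
*Mmp13* and *Podnl1* levels (CPM, log axis) in each of the 15 labelled clusters and the unlabelled cells, at E15.5 and E17.5, with exact Poisson 95% intervals as bars and open triangles at the level of 3 UMIs where there were none. OG3 is highest for both genes, at 321 and 185 CPM for *Mmp13* and 41.7 and 42.9 CPM for *Podnl1*.

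The 2 markers were spread unevenly among OG3 cells. OG3 made up 2.62% of labelled cells at E15.5 and held 86.5% of their *Mmp13* UMIs, and at E17.5 made up 13.6% and held 74.8%. The corresponding shares for *Podnl1* were 54.5% and 64.7%. Most OG3 cells nonetheless had no *Mmp13* UMI, 84 of the 140 at E15.5 and 565 of the 927 in the later library. At the other end, 14 and 66 cells had 10 or more *Mmp13* UMIs, up to 83 and 91 in 1 cell. The tenth of OG3 cells with the most *Mmp13* UMIs held 65.5% of them in the E15.5 library and 69.6% in the E17.5 library. *Podnl1* reached no more than 4 and 5 UMIs in a cell. Outside OG3, 49 and 446 labelled cells had an *Mmp13* UMI, and 1 and 31 had 5 or more.

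To compare cells at 1 depth, each was thinned at random to 3000 UMIs, which left out 7 OG3 cells of E15.5 and none of E17.5. *Mmp13* was then seen in 30.1% of 133 OG3 cells at E15.5 (exact Clopper-Pearson 95% interval 22.4 to 38.6) and in 23.8% of 927 at E17.5 (21.1 to 26.7). *Podnl1* was seen in 16 of the 133 cells (7.04% to 18.8%) and in 12.3% of the 927 (10.3 to 14.6). Without thinning the shares were 40.0% and 39.1% for *Mmp13* and 26.4% and 38.0% for *Podnl1*. As a measure of free RNA, unlabelled cells with UMIs of at least 2 of *C1qa*, *C1qb* and *Csf1r*, genes of macrophages, held *Mmp13* in 0.311% of 322 cells and 1.71% of 584, and *Podnl1* in 0.311% and 0.343%. Their median depths were 9641 and 9809 UMIs. The OG3 shares stood well above these. The shares with *Mmp13* in OG1 (0.429% and 3.56%), OG2 (0.620% and 3.26%) and OG4 (0% of 176 cells, with an exact upper bound of 2.07%, and 0.949%) were far below that of OG3, and their intervals overlapped those of the macrophage-marked cells in both libraries. At E17.5 *Podnl1* was seen in 2.38% of OG1 (1.53 to 3.52) and 2.68% of OG2 (1.47 to 4.46). Both lay above the interval of the macrophage-marked cells (0.0415 to 1.23). *Mmp13* in EC1 at E17.5, at 5.42% (3.132 to 8.66), lay just above that of the macrophage-marked cells (0.824 to 3.126). At E15.5 each of these intervals overlapped that of the macrophage-marked cells. All these shares count cells with a UMI, and a cell without one may still express the gene. *Mmp13* and *Podnl1* were seen together in 6.77% of OG3 cells at E15.5 (3.14 to 12.5) and in 4.42% at E17.5 (3.19 to 5.95), where the products of both shares are 3.62% and 2.93%.

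Against all other labelled cells of the same library, 53 of 7101 genes tested (0.746%) were at least 2-fold higher in OG3 in both libraries, and 196 (2.76%) at least 2-fold lower. A gene entered where the mean of both sides was at least 10 CPM in each library. In E15.5 alone 197 genes (2.77%) were higher and 398 (5.6%) lower, and in E17.5 alone 72 (1.01%) were higher and 251 (3.53%) lower. The make-up of the comparison cells differs, since 1287 of 5335 labelled cells were osteogenic at E15.5, whereas 3425 of 6830 were at E17.5. Of the 53 genes, 46, 49 and 46 were also 2-fold higher in E17.5 suffixes 1, 2 and 3. In both libraries OG3 ranked first among the 15 clusters for 27 of the 53, and first among the 6 osteogenic clusters for 30. Only *Mmp13*, *Pak1*, *Pdzrn4*, *Podnl1*, *S1pr1* and *Sept4* were also at least 2-fold above each of OG1, OG2 and OG4 in both libraries.

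**Figure D2:**
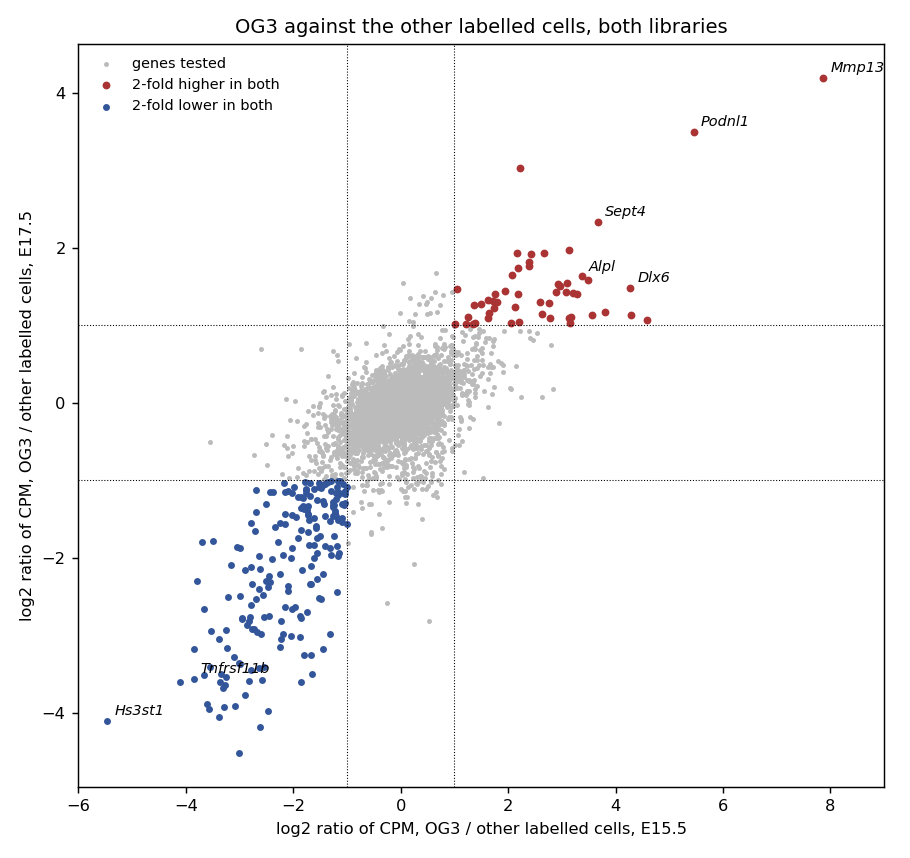
Log2 ratio of OG3 to the other labelled cells at E15.5 (horizontal) and E17.5 (vertical) for each of the 7101 genes tested, with genes at least 2-fold higher or lower in both libraries coloured and the leading genes named. *Mmp13* lies farthest out, at 233.5-fold and 18.4-fold, and 53 genes are higher and 196 lower in both.

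Among transcription factors, *Dlx5* and *Dlx6*, homeobox genes of the osteoblast lineage, were highest in OG3 of all clusters in both libraries. *Dlx5* was at 74.2 CPM (others 8.45) and 194 CPM (others 90.2), and *Dlx6* at 21.6 CPM (others 1.12) and 72.6 CPM (others 25.9). Both were 2-fold above OG4 in both libraries, but neither was 2-fold above OG1 or OG2 in both. *Egr2*, a zinc finger factor induced early by many stimuli, was at 68.0 CPM (others 16.3) and 19.8 CPM (others 6.30). Of 18 genes that respond to tissue dissociation, 16 were tested and 0 were 2-fold higher or lower in both libraries. Over all tested genes 0.746% were higher and 2.76% lower, so few were to be found among 16. Their median log2 ratio was 0.26 at E15.5 and 1.21 at E17.5, where the median of all genes was 0.02 and -0.02. *Fos*, one of them, was at 2139 CPM in OG3 (others 1370) and at 1751 CPM (others 649). Against OG1 alone, 3 of the 16 (*Fos*, *Zfp36*, *Socs3*) were 2-fold higher in both libraries, where 0.89% of all tested genes were. The median log2 ratio of the 16 against OG1 was 0.74 at E15.5 and 1.39 at E17.5. The part of dissociation in these ratios was not tested.

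*Runx2*, the factor that commits cells to the osteoblast lineage, was at 115 CPM in OG3 at E15.5 (97.4 to 135) and at 111 CPM at E17.5 (105 to 117). OG4 was above it, at 192 and 139 CPM. OG1 was below it in both libraries, at 38.5 and 82.1 CPM. OG2 was at 30.7 and 116 CPM, below OG3 at E15.5 only. *Sp7*, which acts after *Runx2*, was at 58.8 CPM in OG3 (46.3 to 73.5) and 188 CPM (180 to 195), second to OG4 at 204 and 318 CPM. Of 16 osteoblast transcription factors, 12 were tested, and only *Dlx5* and *Dlx6* were 2-fold higher in both libraries and none 2-fold lower. Over all tested genes these shares were 0.746% and 2.76%. The median log2 ratio of the 12 was 1.10 at E15.5 and 0.23 at E17.5.

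The 20 genes with the largest ratio included receptors, kinases and a regulator of receptor signalling, grouped here after their values were seen. *Fgfr3*, a fibroblast growth factor receptor, was at 25.5 CPM (17.6 to 35.8) in OG3 at E15.5, where the others had 5.66, and at 29.4 CPM (26.5 to 32.5) at E17.5, where the others had 7.73. It was the only one of 5 tested genes of FGF receptors and feedback that was 2-fold higher, as were 0.746% of all tested genes. *S1pr1*, a receptor for sphingosine 1-phosphate, was at 35.6 CPM (others 6.83) and 42.9 CPM (others 12.6). *Pak1*, a p21-activated kinase, was at 81.9 CPM (others 15.6) and 73.4 CPM (others 20.7). *Dapk2*, a death-associated kinase, was at 22.4 CPM (others 3.55) and 23.1 CPM (others 6.05), with OG4 higher still at 54.7 and 33.1 CPM. *Rgs3*, a regulator of G protein signalling, was at 147 CPM (others 38.1) and 240 CPM (others 88.0). Of these, *Fgfr3*, *S1pr1* and *Pak1* peaked in OG3 in both libraries.

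Other genes of the 20 encode membrane, cytoskeletal or secreted proteins. *Sept4*, a septin, was at 32.5 CPM (others 2.56) and 29.5 CPM (others 5.82). *Lrrc15*, a leucine-rich repeat membrane protein, was at 38.7 CPM (others 7.23) and 101 CPM (others 26.6), and *Pdzrn4*, a PDZ and RING domain protein, at 31.7 CPM (others 3.64) and 71.6 CPM (others 18.3). OG3 ranked first among the clusters for all 3. *Srpx2*, *Crispld2* and *Omd*, which encode secreted proteins, had ratios of 7.57-, 7.80- and 8.57-fold at E15.5 and of 2.90-, 2.85- and 2.92-fold at E17.5. *Omd*, the small leucine-rich proteoglycan osteomodulin, was higher in OG4, at 177 and 116 CPM, than in OG3, at 84.2 and 109 CPM. *Actr3b*, *Cox4i2* and *Fam134b* were also among the 20 genes with the largest ratio, at 11.2-, 4.55- and 7.43-fold at E15.5 and 3.01-, 3.34- and 2.71-fold at E17.5.

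Bone matrix and mineralization genes split within the list. Of 20 genes, 14 were tested, and 4 were 2-fold higher (*Spp1*, *Alpl*, *Enpp1*, *Ank*) and 3 2-fold lower (*Ibsp*, *Smpd3*, *Ifitm5*) in both libraries. Of all tested genes, 0.746% were higher and 2.76% lower. Among the 4 higher genes, *Alpl* alone was highest in OG3 of all clusters in both libraries. *Alpl*, tissue-nonspecific alkaline phosphatase, was at 481 CPM in OG3 (444 to 520) and 607 CPM (594 to 621), the highest of all clusters, with OG4 next at 297 and 547 CPM. *Enpp1*, which makes the mineralization inhibitor pyrophosphate, was at 32.5 CPM (others 3.59) and 26.5 CPM (others 12.3). *Ank*, which exports pyrophosphate or its source from cells, was at 31.7 CPM (others 4.63) and 21.3 CPM (others 9.96). *Spp1*, which encodes osteopontin, was at 1598 CPM (others 163) and 560 CPM (others 211), and varied over E17.5 suffixes with ratios from 1.59- to 3.61-fold. Against OG4 alone, *Spp1* was at least 2-fold lower in OG3 in both libraries.

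*Ibsp*, *Ifitm5*, *Bglap* and *Col1a1*, which mature osteoblasts express strongly, were lower in OG3 than in OG4. *Ibsp*, bone sialoprotein, was at 449 CPM in OG3 and 41200 CPM in OG4 at E15.5, and at 158 and 13640 CPM at E17.5. *Ifitm5*, a membrane protein of mineralizing osteoblasts, was at 42.5 and 92.6 CPM in OG3 and at 3263 and 3238 CPM in OG4. *Bglap*, osteocalcin, was at 37.9 and 9.39 CPM in OG3 and at 1505 and 96.4 CPM in OG4. *Col1a1*, the main chain of collagen I, was at 3362 CPM in OG3 (others 6547) and 7448 CPM (others 11370). In each of these genes the interval of OG3 lay below the level of OG4.

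The other lists are read against all tested genes, of which 0.746% were 2-fold higher and 2.76% 2-fold lower in both libraries. Of 13 tested metalloproteinases and inhibitors, *Mmp13* alone was 2-fold higher, and *Mmp16* and *Adamts5* were lower. Of 11 small leucine-rich proteoglycans, *Podnl1* and *Omd* were higher and *Dcn* and *Epyc* lower. *Mmp13* and *Podnl1* are counted in these lists although they are the markers of the cluster. *Dcn*, decorin, was at 812 CPM in OG3 (others 5225) and 764 CPM (others 2036). Of 10 periosteum genes, *Tnn*, *Acta2* and *Fap* were higher and *Sfrp2* lower. *Tnn*, tenascin N, was at 85.8 CPM (others 3.59) and 494 CPM (others 234), and OG1 was level with OG3 at E17.5, at 511 CPM. *Fap*, fibroblast activation protein, was at 159 CPM (others 76.7) and 185 CPM (others 66.7), the highest of all clusters. *Postn*, periostin, did not pass 2-fold in both, at 571 CPM (others 409) and 1430 CPM (others 580).

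Signalling lists are read against the 0.746% of all tested genes that were 2-fold higher and the 2.76% that were lower. Of 11 tested Wnt pathway genes, none was 2-fold higher and *Dkk2*, *Sfrp1*, *Sfrp2* and *Rspo3* were lower. *Dkk2*, a secreted modulator of Wnt receptors, was at 19.3 CPM (others 154) and 9.01 CPM (others 50.9). Of 10 insulin-like growth factor genes, none was higher and *Igf1*, *Igfbp2*, *Igfbp3*, *Igfbp4* and *Igfbp6* were lower. Against OG4 alone, however, 5 of the 10 were higher (*Igf1*, *Igf2*, *Igfbp4*, *Igfbp5*, *Igfbp7*) and none lower. In that comparison 5.21% of all tested genes were higher and 3.15% lower. Of 23 BMP and TGF-beta genes, *Tgfb1* was higher, at 61.8 CPM (others 14.2) and 128 CPM (others 54.5), and 6 were lower. Among 4 Notch genes *Hey1*, a target of the pathway, was higher, at 34.8 CPM (others 4.14) and 17.8 CPM (others 6.57), and among 7 hedgehog genes *Boc* and *Gas1* were lower. *Npnt*, which encodes nephronectin, was the higher gene and *Twist2* the lower one among 10 osteoprogenitor and suture genes. Among 3 osteocyte genes *Pdpn* was lower, and among 19 collagen processing genes *Loxl1* was lower. None of 5 tested genes of the parathyroid hormone response and none of 16 cell cycle genes passed 2-fold in both libraries. *Mki67*, a proliferation gene, was at 72.7 CPM in OG3 at E15.5 (others 45.2) and at 25.9 CPM at E17.5 (others 51.9).

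The 10 genes lowest in OG3 were mostly genes that peaked in the ectocranial cluster EC2. The 10 with the smallest ratio were *Hs3st1*, *Dpp4*, *Krtdap*, *Tnfrsf11b*, *Efhd1*, *Ptgs1*, *Ly6a*, *Itih5*, *Mfap5* and *Wnt2*, and 9 of them, all but *Hs3st1*, peaked in EC2 in both libraries. *Dpp4*, a cell surface peptidase, was at 10.1 CPM in OG3 (others 123) and 1.94 CPM (others 28.8). *Mfap5*, a microfibril protein, was at 89.7 CPM (others 926) and 41.2 CPM (others 504). *Hs3st1*, a heparan sulfate sulfotransferase, was at 0.773 CPM, from 1 UMI, where the others had 34.1, and at 1.32 CPM where the others had 22.7. At E17.5 OG1, OG2 and OG4 were as low as OG3 for most of them, with *Mfap5* at 39.0, 34.9 and 39.4 CPM. Of the 196 lower genes, 18 were also 2-fold lower against OG1, 2 against OG2 and 27 against OG4.

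Genes that act on osteoclasts were set out separately. *Tnfsf11*, which encodes RANKL, the ligand that drives osteoclast formation, lay below the filter of 10 CPM but was highest in OG3. It was at 19.3 CPM (12.5 to 28.5, 25 UMIs) at E15.5, where the other labelled cells had 0.486, and at 13.8 CPM (11.9 to 16.0, 178 UMIs) at E17.5, where they had 1.68. *Tnfrsf11b*, osteoprotegerin, the decoy receptor for RANKL, had no UMI in OG3 at E15.5, at least 14.5-fold lower than the 33.6 CPM of the others against a floor of 3 counts. At E17.5 it was at 2.17 CPM (others 25.7). OG1 and OG2 were low for both genes at E17.5, at 2.26 and 1.89 CPM for *Tnfsf11* and 1.25 and 1.89 CPM for *Tnfrsf11b*.
*Csf1*, the growth factor of the macrophage and osteoclast lineage, was at 37.1 CPM (27.4 to 49.2) and 30.0 CPM (27.1 to 33.1) in OG3. It stood at 10.9 and 13.8 CPM in OG1, 13.9 and 13.8 in OG2, and 3.87 and 10.3 in OG4. Together with the chemokines *Ccl2* and *Ccl7* it was at least 2-fold above each of these clusters, but not above all other labelled cells, in both libraries. *Ccl2* was at 27.8 CPM (others 5.96) and 21.5 CPM (others 11.3), and unlabelled cells, which include macrophages, were at 81.0 and 246 CPM. Osteoclast markers summed to 54.9 CPM in OG3 at E15.5 (others 25.1, unlabelled 285), with *Ocstamp*, *Dcstamp*, *Atp6v0d2*, *Oscar* and *Calcr* at 0. At E17.5 the sum was 32.1 CPM (others 32.8, unlabelled 364), with *Oscar* and *Calcr* at 0.

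Against OG1, 62 of 6968 genes (0.89%) were 2-fold higher in OG3 and 34 (0.488%) 2-fold lower in both libraries. *Spp1* differed most after *Mmp13*, at 1598 and 560 CPM in OG3 and 54.1 and 52.4 CPM in OG1. *Mlip* was at 37.9 and 75.0 CPM against 2.08 and 13.5 CPM, and *Vit*, a matrix protein gene, at 18.6 and 19.7 CPM against 2.08 and 4.52. *Podnl1*, *Egr2*, *Fat3* and *Lifr*, a receptor subunit for leukaemia inhibitory factor, completed the leading 8. Lower in OG3 were *Igf1*, at 105 and 22.8 CPM against 490 and 112 in OG1, and *Gdf10*, at 10.8 and 12.5 CPM against 44.2 and 78.4. The ligament-associated genes *Tac1* and *Scx* were lower too, *Scx* at 6.18 and 9.86 CPM against 27.0 and 31.2. *Rasl11b*, *Igfbp2*, *Angptl1* and *Strbp* made up the rest of the 8 lowest. *Sp7* was the 1 higher gene of the 13 osteoblast transcription factors tested against OG1.

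Against OG2, 69 of 6816 genes (1.01%) were higher and 8 (0.117%) lower. *Spp1* was at 12.4 and 75.9 CPM in OG2, and *Wisp2*, a CCN family gene, at 0.731 and 6.81 CPM where OG3 had 40.2 and 28.2. *Fap* was at 21.7 and 39.5 CPM in OG2 and *Lrrc15* at 1.71 and 19.3 CPM, both lower than in OG3. *Podnl1*, *Dapk2* and *Pdzrn4* were the other leading genes beside *Mmp13*. The 8 lower genes were *Crabp1*, *Cd24a*, *Ccnd1*, *Col26a1*, *Rspo1*, *Hmgb3*, *5930412G12Rik* and *Cpne5*. *Crabp1*, which binds retinoic acid, was at 85.8 and 13.2 CPM in OG3 against 1742 and 88.5 CPM in OG2. *Ccnd1*, cyclin D1, was at 76.5 and 52.9 CPM against 246 and 174. Of 10 periosteum genes, 5 were higher than in OG2 (*Postn*, *Aspn*, *Ogn*, *Acta2*, *Fap*) and none lower. Against OG1, however, 0 of the 10 were higher and 1 (*Sfrp2*) was lower, with median log2 ratios of -0.04 at E15.5 and -0.03 at E17.5.

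Against OG4, 349 of 6704 genes (5.21%) were higher and 211 (3.15%) lower, the largest counts of the 3 comparisons. The median log2 ratio of all genes was 0.43 at E15.5 and 0.10 at E17.5, so the counts at E15.5 are read against that shift. *Aspn*, asporin of the small leucine-rich proteoglycans, was at 976 and 1657 CPM in OG3 and at 56.4 and 130 CPM in OG4. *Tagln*, a smooth muscle actin-binding protein, was at 113 and 181 CPM against 2.76 and 15.2, and *Sostdc1*, a secreted Wnt and BMP antagonist, at 27.1 and 20.4 CPM against 0.553 and 1.72. *Pdzrn4*, *Plxdc2* and *Ccdc3* joined *Mmp13* and *Podnl1* in the leading 8. Lower in OG3 were *Col22a1*, *Lipi*, *Mamdc2*, *Car3* and the mineralization genes *Ibsp*, *Smpd3*, *Dmp1* and *Ifitm5*. *Dmp1*, an osteocyte and osteoblast matrix protein, was at 12.4 and 2.48 CPM against 604 and 89.2. *Lipi* and *Mamdc2* had no UMI in OG3 at E15.5, at least 42.9- and 44.3-fold lower against a floor of 3 counts. Of 16 bone matrix genes, 1 was higher and 11 lower than in OG4, and of 10 periosteum genes 7 were higher and none lower.

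**Figure D3:**
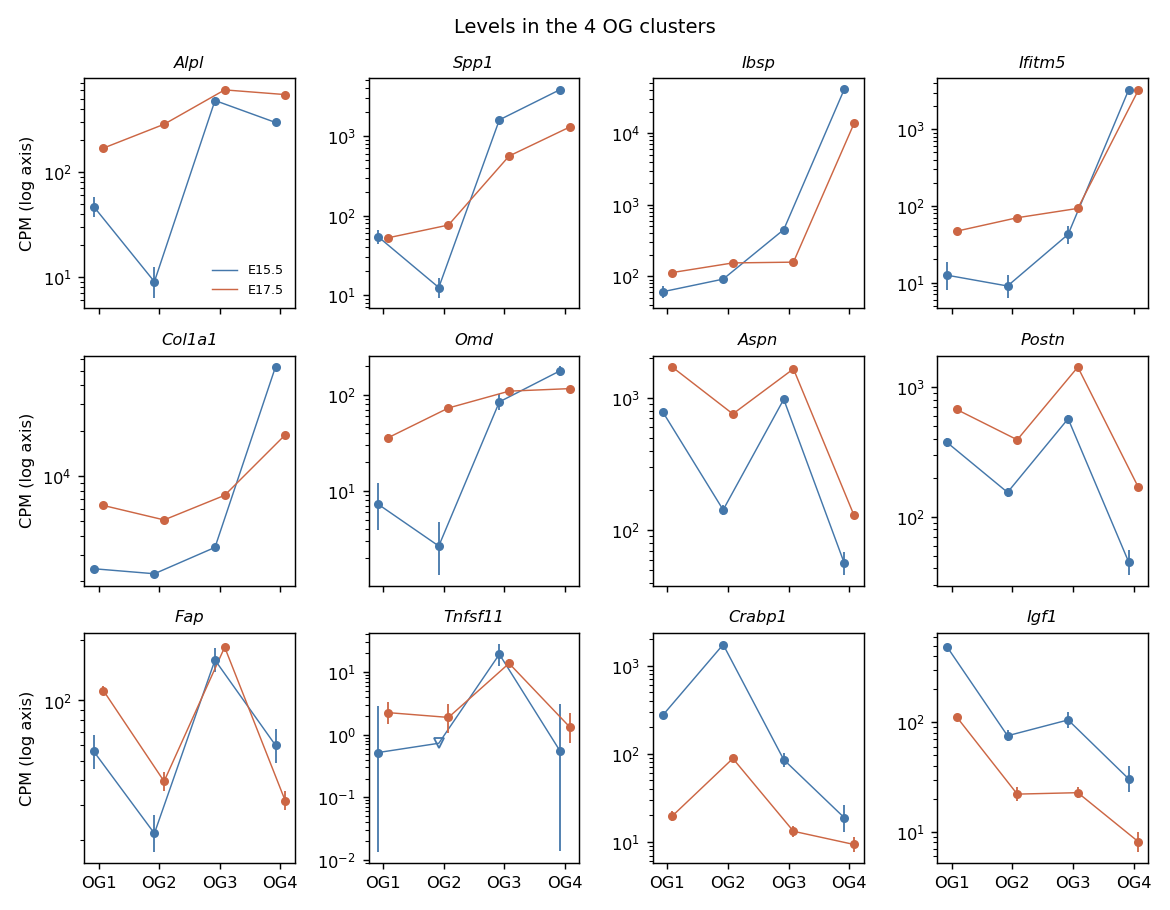
Levels (CPM, with exact Poisson 95% intervals) of named genes in OG1, OG2, OG3 and OG4 at E15.5 and E17.5, 1 panel a gene, on log axes. *Alpl* is highest in OG3 at 481 and 607 CPM, and *Ibsp* and *Spp1* are highest in OG4.

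Over all genes OG3 was most like OG1, by a small margin over OG2 at E17.5. The Pearson correlation of log2(CPM + 10) between OG3 and OG1 was 0.958 over 7790 genes at E15.5 and 0.981 over 7772 at E17.5, and with OG2 it was 0.937 and 0.979. OG4 was at 0.870 at E15.5, the lowest of all other clusters, where LIG was at 0.933 and EC4 at 0.924. At E17.5 OG4 was at 0.948, below PO1 and EC1, both at 0.959. These correlations describe clusters of a shared library, and genes are not independent.

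Within OG3, cells with and without an *Mmp13* UMI after thinning to 3000 UMIs were compared as a description, with genes picked after their values were seen. The E15.5 library had 40 cells with and 93 without, and the E17.5 library 221 with and 706 without. *Spp1* was at 3792 CPM (3451 to 4157) in cells with *Mmp13* and 860 CPM (755 to 976) in cells without at E15.5, and at 1848 CPM (1746 to 1954) and 292 CPM (269 to 316) at E17.5. A *Spp1* UMI was seen in 20 of 40 cells against 14 of 93, and in 72 of 221 against 111 of 706, so both libraries went the same way. The CPM intervals leave out the spread between cells, so whether they overlap does not settle whether a gene differs.
*Wisp2* was at 108 against 7.17 CPM and 70.9 against 18.4 CPM, and *Ank* at 83.3 against 7.17 CPM and 42.2 against 15.6 CPM. *Igfbp5*, an insulin-like growth factor binding protein, was at 808 against 312 CPM and 653 against 250 CPM. *Podnl1* was at 100 against 28.7 CPM and 70.9 against 37.8 CPM. *Alpl* differed less, at 725 against 466 CPM and 762 against 576 CPM. *Runx2* had overlapping intervals in both libraries, at 66.7 against 89.6 CPM and 104 against 115 CPM. *Acta2* was lower in cells with *Mmp13* at E17.5, at 241 against 493 CPM, with overlapping intervals at E15.5. Genes high in OG4 went both ways. *Ibsp* was at 1042 against 190 CPM at E15.5 and at 122 against 150 CPM at E17.5, so it did not follow *Spp1* in both libraries. *Bglap* was higher in cells with *Mmp13* in both, at 83.3 against 39.4 CPM and 24.1 against 8.03 CPM, with overlapping intervals at E15.5. *Bglap2* was at 0 against 25.1 CPM at E15.5 and at 34.7 against 5.67 CPM at E17.5. Whether doublets with OG4 cells add to these values was not tested.

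**Figure D4:**
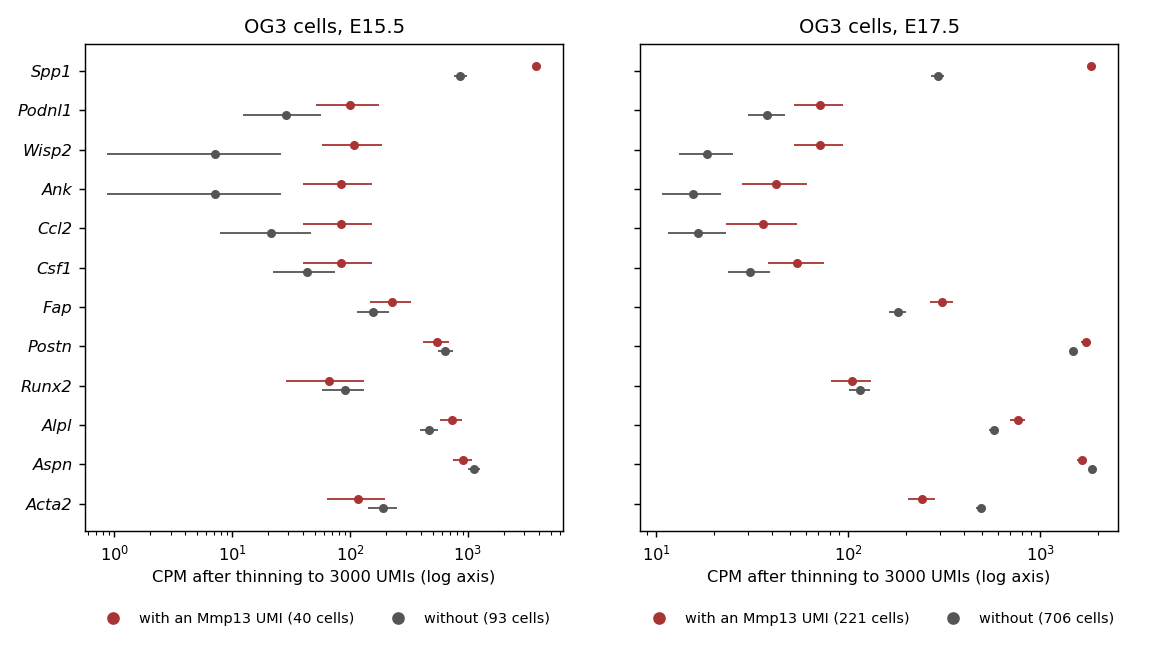
Levels (CPM after thinning to 3000 UMIs, log axis, exact Poisson 95% intervals) in OG3 cells with (red) and without (grey) an *Mmp13* UMI, at E15.5 (left) and E17.5 (right). *Spp1* is at 3792 against 860 CPM and 1848 against 292 CPM, and the *Runx2* intervals overlap.

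OG3 took a larger share of the E17.5 library. It was 2.62% of labelled cells at E15.5 (exact Clopper-Pearson 95% interval 2.21 to 3.09) and 13.6% in the E17.5 library (12.8 to 14.4), which is 5.17 times as much. Of osteogenic cells alone it was 10.9% (9.23 to 12.7) of 1287 and 27.1% (25.6 to 28.6) of 3425, a ratio of 2.49. Over E17.5 suffixes 1, 2 and 3 the share of labelled cells was 19.0%, 13.3% and 11.5%, each above E15.5. Enzyme and sorting differed with stage, and their part in the shares cannot be told apart from it.

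**Figure D5:**
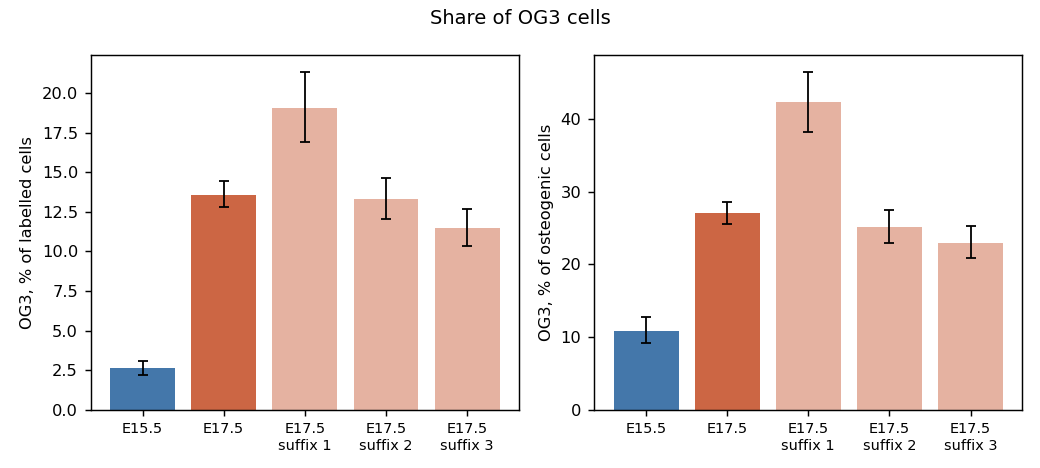
Share of OG3 cells among labelled cells (left) and osteogenic cells (right), in percent with exact Clopper-Pearson 95% intervals, for E15.5, E17.5 and each E17.5 barcode suffix. The share of labelled cells is 2.62% at E15.5 and between 11.5% and 19.0% in the suffixes.

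Between libraries, 348 of 7535 genes tested in OG3 (4.62%) were at least 2-fold higher at E17.5 and 500 (6.64%) at least 2-fold lower. The other labelled cells gave 329 (4.22%) and 495 (6.34%) of 7805 genes, so the counts in OG3 are close to that background. Genes were ranked by the OG3 ratio divided by that of the other labelled cells. *Tppp3*, a tubulin-binding protein, led, at 20.1 CPM in the E15.5 library (13.1 to 29.4) and 247 CPM in the E17.5 library (239 to 256), where the others had 122 and 153. *Ackr3*, a decoy receptor for the chemokine CXCL12, was at 3.09 and 21.7 CPM, where the others had 36.0 and 30.8. *Ece2*, a metallopeptidase, was at 0.773 CPM, from 1 UMI, and 42.2 CPM, but the others also went from 2.22 to 34.2. *Igf2*, picked after its values were seen, likewise went from 39.4 to 2230 CPM in OG3 and from 44.5 to 1902 CPM in the others. The part of the differing gene lists and counting in such shifts was not tested. *Adamtsl5*, *Ndrg4*, *Cmip*, *Anpep* and *Flrt3* completed the 8.
On the lower side, *Foxs1*, a forkhead factor, was at 23.2 and 3.18 CPM, where the others had 0.338 and 0.853. *Heyl*, a Notch target, was at 20.9 and 1.94 CPM (others 3.00 and 2.43), and *Mmp9*, gelatinase B of osteoclasts and other cells, at 30.9 and 5.82 CPM (others 4.61 and 5.06). In the unlabelled cells *Mmp9* stood at 99.7 and 135 CPM. *Cldn11* and *Matn4*, which are meningeal markers, were lower at E17.5 in OG3 and higher in the others, *Cldn11* at 30.9 and 5.43 CPM where the others had 21.4 and 38.3. *Chst1*, *Ctgf* and *Gucy1a3* were the remaining genes. *Mmp13* itself was 1.74-fold lower at E17.5 in OG3 and *Podnl1* 1.03-fold higher, neither past 2-fold, while *Sp7* was 3.19-fold higher in OG3 and 9.50-fold higher in the other labelled cells.

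Markers of other cell types in OG3 were mostly at or below the level of the other labelled cells. Myeloid markers summed to 39.4 CPM at E15.5 (others 50.3, unlabelled 1778) and 142 CPM at E17.5 (others 167, unlabelled 5496), with *Csf1r* and *Ptprc* at 0 at E15.5. Endothelial markers summed to 10.8 CPM (others 72.5) and 8.23 CPM (others 26.9), with *Cdh5* at 0 at E15.5, and pericyte markers to 37.1 CPM (others 82.3) and 20.1 CPM (others 68.0), with *Higd1b* at 0 in both. Chondrocyte markers summed to 506 CPM at E15.5 (others 361, unlabelled 8263) and 108 CPM at E17.5 (others 142, unlabelled 1844), with *Col10a1* at 0 in both. The clusters other than OG3 ranged from 215 to 1245 CPM for that sum at E15.5, so OG3 lay within their range. Ectocranial, meningeal and ligament-like markers summed to 131, 112 and 28.6 CPM at E15.5 (others 1103, 241 and 53.0) and 171, 30.3 and 42.2 CPM at E17.5 (others 762, 199 and 160). Neuron and glia markers were at 2.32 CPM (others 1.31) and 3.88 CPM (others 5.52). Haemoglobin and other red blood cell genes, which reach all cells as free RNA, summed to 10520 CPM (others 10860) and 509 CPM (others 552).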

How the data were processed

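Single cells of wild-type mouse coronal sutures were captured with 10x Genomics 3′ reagents. The authors deposited matrices of UMI counts per gene and barcode, without normalization and before cell filters, and a cell table with cluster labels, UMI counts and the percent of mitochondrial and haemoglobin UMIs. That table was made by the authors in Seurat 3.2.0. Their reads were counted with Cell Ranger against mm10. The study's methods name an earlier version and default settings, aggregation included, whereas the E15.5 matrix header names version 3.1.0. FastQC 0.11.7 and MultiQC 0.9 are listed in the submitters' processing notes.

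Barcodes were matched to labels, genes by Ensembl identifier, and UMIs were summed per cluster and library in pandas 2.3.3, SciPy 1.17.1, NumPy 2.4.6 and Scanpy 1.11.5, run under Python 3.11.15, with figures from matplotlib 3.10.9. Genes with a mean of at least 10 CPM over both sides were compared, with a limit of 2-fold in both libraries. No differential test was run, as each stage has 1 library. The ratio calls were tested on simulated counts that held counting error only and changes larger than the 2-fold limit. Calls near that limit were not tested in this way. The thinning was tested on the counts of OG3 cells of E17.5. The genes named are both markers, the 20 highest and 10 lowest against the other labelled cells, the 8 highest and lowest against each of OG1, OG2 and OG4 and between libraries, and members of the lists. In the last set, genes are ranked by the ratio divided by that of the other labelled cells. 1 gene of the 20 highest is not reported here. Mitochondrial, ribosomal protein, haemoglobin and X-inactivation genes are left out of the ranked sets. Members and lists were chosen with earlier results of these data known. Doublets called by Scrublet were kept, and cells with the top 6% of scores were left out as an alternative. Positions are from GENCODE vM21, and promoter windows from RefSeq (GRCm38.p6), in which 40 of the 53 higher genes matched. Other alternatives were the filter, the fold limit, the scaling, thinning, single suffixes, the comparison cells and the denominator of shares.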

Additional observations from a re-analysis of the deposited data

Results flagged for a closer look

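*Mmp13* was also seen in cells without a deposited label, which enter none of the ratios or counts of genes. They were at 13.89 CPM at E15.5 and 23.57 CPM at E17.5, where the labelled cells outside OG3 had 1.374 and 10.05 CPM. The gene was seen in 1.75% of 2740 unlabelled cells at E15.5 and in 2.944% of 1936 at E17.5 after thinning to 3000 UMIs. No gene was 2-fold in opposite directions in both libraries.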

How the results depend on the processing

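No paired analysis was possible because each stage has 1 library and no test was run. Leaving out replicates was not possible for the same reason. Counts are given as higher and lower, against the other labelled cells, OG1, OG2, OG4 and then E17.5 against E15.5. With no filter on low values they were 191 and 573, 168 and 210, 275 and 80, 883 and 402, 1003 and 2065. With a filter of 50 CPM they were 12 and 63, 14 and 9, 24 and 5, 88 and 79, 116 and 100. With a limit of 1.5-fold they were 127 and 317, 155 and 112, 173 and 49, 783 and 439, 943 and 1226, and with 3-fold 14 and 101, 23 and 6, 17 and 3, 119 and 112, 109 and 167. These settings change how many genes can pass by construction.

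The *Mmp13* ratio at E17.5, 18.37 (16.95 to 19.93), was 20.5 after thinning to 3000 UMIs, 20.53 as a mean over cells, 20.02 in suffix 1, 16.01 in suffix 2 and 15.2 against the other osteogenic clusters. The *Podnl1* ratio at E17.5, 11.35 (9.843 to 13.1), was 7.936 in suffix 1, 15.4 in suffix 2 and 8.331 against the other osteogenic clusters. The cause of these moves was not tested. Genes lower against OG2 numbered 23 after thinning, 17 in suffix 1 and 13 in suffix 2, against 8, and genes higher at E17.5 numbered 596 after thinning, against 348. Genes lower against the other osteogenic clusters numbered 65, a comparison without the ectocranial clusters.

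The OG3 share was 19.04% in suffix 1 and 11.46% in suffix 3, and 10.88% and 27.07% of osteogenic cells and 1.705% and 10.57% of all cells. Without thinning, *Mmp13*, *Podnl1* and both were seen in 40.0%, 26.43% and 15.71% of OG3 cells at E15.5. In the E17.5 library these shares were 39.05%, 37.97% and 20.06%. Thinned to 5000 UMIs, *Mmp13* was seen in 39.02% at E15.5, and the E17.5 shares were 27.39%, 19.02% and 7.609%. In suffix 1 alone, the shares of cells with *Mmp13* and *Podnl1* were 27.23% and 8.936%.

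6 genes that were lower at E17.5 were higher against the other osteogenic clusters, with a log2 ratio of 0.30 for *Krtdap*, 0.13 for *Efhd1*, 0.28 for *Ptgs1*, 0.40 for *Ly6a*, 0.12 for *Mfap5* and 0.11 for *Wnt2*, all under 2-fold. Of the values for named genes, 1012 moved by less than their counting interval and 242 by more. Without cells of high doublet score 11 of them moved. Sparse genes limit most at E15.5, where OG3 has 140 cells.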
